A study of Mus musculus with 4 samples.

Results

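The 9 genes described here encode surface receptors through which hematopoietic stem cells (HSCs) bind and find the bone marrow niche: Cxcr4, Itga4, Itga6, Itgb1, Itgb2, Itgal, Itgb5, Selplg and Cd44. They were chosen by name, with earlier results of these data known. All 9 were found once each among the 31053 genes of the deposited count tables. Their transcripts were counted in single cells of 4 libraries, 2 of long-term HSCs (LT-HSC, sorted as Lin-Kit+Sca1+CD150+CD48-) and 2 of short-term HSCs (ST-HSC, sorted as Lin-Kit+Sca1+CD150-CD48-). The marrow came from 2 male mice at 14 weeks of age, and each mouse gave 1 library per gate. All 4 libraries carry the strain label Tie2-bG-Micm x RosaYFP, an allele named for the Tie2 promoter with a YFP reporter at Rosa, and no library without these alleles was analysed here. The labels name no agent given to the mice.

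Integrins are pairs of an alpha and a beta chain. The alpha 4 and alpha 6 chains pair with beta 1 to bind VCAM-1, fibronectin and laminins, the alpha L chain pairs with beta 2 to form LFA-1, which binds ICAMs, and beta 5 pairs with the alpha V chain to bind vitronectin. CD44 binds hyaluronan, PSGL-1 (the product of Selplg) is a ligand of the selectins that lets cells roll on vessel walls, and CXCR4 is the receptor of CXCL12, which holds HSCs in the marrow and guides them back to it. A transcript count says nothing of how much protein was on the surface, or of whether an integrin was in its active state.

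A barcode was kept as a cell from 1000 genes and 2000 unique molecular identifiers (UMIs, 1 per captured RNA molecule) upwards, with no more than 10% of its UMIs from mitochondrial genes. The libraries are called LT1, LT2, ST1 and ST2 below, after the gate and the number of the mouse. The filter left 22 of 39553 barcodes in LT1, 1217 of 1288 in LT2, 2633 of 2793 in ST1 and 1707 of 1784 in ST2. They held 115305, 13249904, 27870823 and 13566531 UMIs in that order. LT1 stands apart: 3 UMIs of it make 26.0 counts per 1e6 UMIs (CPM), against 0.226 CPM or less in each of the others, so a gene under that level can be missed there. Each gate difference below is therefore given beside the value with all barcodes of that library summed. Kept cells of LT2 and ST2 shared 1 barcode, as did both ST-HSC libraries. Slamf1, the gene of the CD150 protein that parts the gates, was higher in LT-HSC by a log2 fold change of 4.43 (SE 0.33; edgeR adjusted p = 1.78e-32). All 10 markers of HSCs were detected in each of the 4 libraries.

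Of the 9 receptor genes, 3 were lower in LT-HSC than in ST-HSC: Itgb5, Itgal and Cd44. None was higher in LT-HSC past the threshold, and 6 did not pass it (edgeR quasi-likelihood test on counts summed per library, Benjamini-Hochberg adjusted p under 0.05 over 12656 genes, log2 fold changes as LT-HSC minus ST-HSC). Over all genes tested, 6.72% passed, 3.6% as higher and 3.13% as lower in LT-HSC. At an unadjusted p under 0.05, 1 of the 9 genes (Itga6) was higher and 5 were lower in LT-HSC by edgeR, where 13.6% of all genes tested lay under it, 6.98% as higher and 6.6% as lower. With all barcodes of LT1 the same 3 genes passed, where 8.87% of 12892 genes did. With DESeq2, another count test, 1 of the 9 passed, Itgb5, where 0.419% of genes did, and with the mouse as a replicate block, a fit that compares the gates within each animal, 4 passed, where 6.76% did. The DESeq2 adjusted p of Itgal and of Cd44 was 1 with the kept cells, and 0.000253 for Itgal and 7.26e-05 for Cd44 with all barcodes of LT1. The median log2 fold change of the 9 genes was -0.42 and 7 of 9 values were negative, beside a median of -0.02 and 53.2% negative over all genes tested. The 9 genes were chosen with earlier results of these data known, so these counts and medians describe them and nothing more. The 2 LT-HSC and 2 ST-HSC libraries did not overlap in 8 of the 9 genes, with LT-HSC higher in 2 and lower in 6. Such separation held for 39.1% of all genes tested, with LT-HSC higher in 15% and lower in 24.2%. With 2 libraries per gate, and the 22 cells of 1 of them, much of that separation lies within counting error, as the intervals in the plot of levels by library show.

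**Figure D1:**
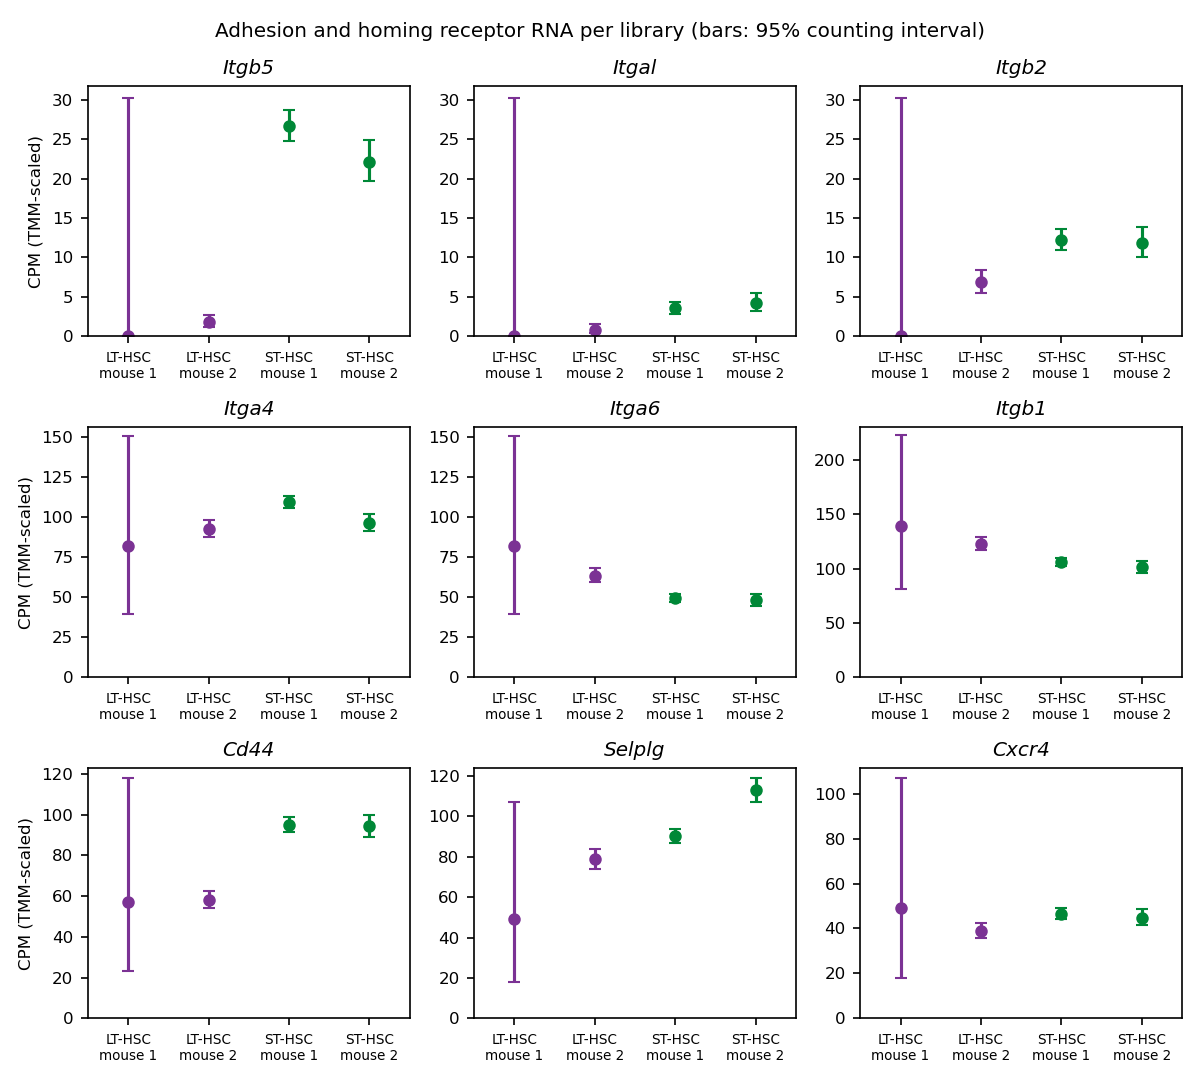
Level of each of the 9 receptor genes in the 4 libraries, in CPM scaled by edgeR's TMM factors (y axis, from 0), with LT-HSC in purple and ST-HSC in green; points are summed counts of 1 library and bars are 95% Poisson intervals, which cover counting error only. Itgb5 lay at 1.85 CPM in LT2, against 26.7 and 22.1 CPM in both ST-HSC libraries, and the wide bars of LT1 come from its 0 to 17 UMIs per gene.

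The gene coordinates are those of the GENCODE vM21 annotation of the mm10 (GRCm38) build. Promoter windows of 250 bases before the gene start were taken from RefSeq (GRCm38.p6), where 5 of the 9 genes matched. Those of Itgb5 and Cd44 are shown because these are the genes with a window that differed between the gates, and that of Itgb1 as a beta chain that did not pass the test. Each is written 5′ to 3′ on the strand of its gene. Capitals mark GGGCGG (the GC box, bound by Sp1-type factors) and GAGGAA (the core of sites bound by PU.1-type factors) on either strand, so that CCGCCC and TTCCTC are marked too, and no marked matches overlap.
Itgb5, chr16:33829415-33829664, plus strand: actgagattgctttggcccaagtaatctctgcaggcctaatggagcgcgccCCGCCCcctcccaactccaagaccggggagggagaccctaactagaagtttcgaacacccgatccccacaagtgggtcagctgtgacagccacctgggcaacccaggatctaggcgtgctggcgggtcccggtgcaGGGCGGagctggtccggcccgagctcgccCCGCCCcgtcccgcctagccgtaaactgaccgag
Cd44, chr2:102901666-102901915, minus strand: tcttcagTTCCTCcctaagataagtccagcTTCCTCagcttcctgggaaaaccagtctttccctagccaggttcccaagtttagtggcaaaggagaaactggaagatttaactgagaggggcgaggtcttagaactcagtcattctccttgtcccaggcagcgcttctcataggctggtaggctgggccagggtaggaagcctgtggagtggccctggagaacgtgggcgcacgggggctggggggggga
Itgb1, chr8:128685404-128685653, plus strand: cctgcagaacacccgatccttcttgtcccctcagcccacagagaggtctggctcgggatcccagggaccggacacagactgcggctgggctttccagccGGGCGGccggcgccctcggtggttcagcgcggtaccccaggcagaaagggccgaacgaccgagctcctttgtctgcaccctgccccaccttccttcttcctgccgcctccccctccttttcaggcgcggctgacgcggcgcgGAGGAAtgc

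The Itgb5 window held 3 GC boxes, 18 CpG dinucleotides and 65.2% G and C. The Cd44 window held no GC box, 2 GAGGAA matches, 5 CpG dinucleotides and 56.4% G and C. The Itgb1 window held 1 GC box, 1 GAGGAA match, 21 CpG dinucleotides and 68% G and C. Over 32851 RefSeq promoter windows of the same length, 32.7% held a GC box and 23.3% held GAGGAA, with medians of 6 CpG dinucleotides and 52.4% G and C. Itgb5 and Cd44 thus have windows of unlike composition, and a match is a description of the letters only.

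Itgb5 (ENSMUSG00000022817, chromosome 16, 33829665 to 33949338, plus strand), the beta chain of a vitronectin receptor, showed the widest gap of the 9 genes. It lay at 0 and 1.85 CPM in the LT-HSC libraries, against 26.7 and 22.1 CPM in the ST-HSC libraries. These levels rest on 0 and 24 UMIs in LT-HSC and on 738 and 291 UMIs in ST-HSC. Both LT-HSC libraries lay below both ST-HSC libraries, although the 0 UMIs in LT1 have a 95% Poisson upper bound of 30.2 CPM, above both ST-HSC levels. The fitted difference was -3.74 (SE 0.33; edgeR adjusted p = 2.15e-24), a level 13.3-fold higher in ST-HSC. With all barcodes of LT1 the levels were 2.31 and 1.75 CPM in LT-HSC, against 25.2 and 20.9 CPM in ST-HSC, and the difference was -3.51 (SE 0.22; edgeR adjusted p = 1.59e-06). All 28 Itgb5 UMIs of LT1 lay in barcodes outside the kept cells. For mouse 1 the low level thus rests on barcodes that failed the filter. Without LT2, the 0 UMIs of the kept LT1 cells were all that stood for LT-HSC, and Itgb5 did not pass (edgeR adjusted p = 0.496).

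The Itgb5 difference showed in the share of cells with the transcript. After each cell was thinned to 2000 UMIs, 0.411% of 1217 cells had an Itgb5 UMI in LT2 (95% exact binomial interval 0.134% to 0.956%), against 5.62% of 2633 cells in ST1 (4.77% to 6.57%) and 4.28% of 1707 cells in ST2 (3.37% to 5.35%). Without thinning the shares were 1.89%, 23.4% and 14.4% in the same order, at medians of 10367, 9881 and 7504 UMIs per cell. LT1, with a median of 4494.5 UMIs in its 22 cells, is not part of these shares. No cell of LT2 held 3 or more Itgb5 UMIs, while 22 cells of ST1 and 5 cells of ST2 did. No kept population known to lack these genes was large enough to measure background from free RNA, and the 0.411% in LT-HSC is an upper limit for that background in its own library only.

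Itgal (ENSMUSG00000030830, chromosome 7, 127296260 to 127335138, plus strand), the alpha chain of LFA-1, was the second gene to pass. Its levels were 0 and 0.849 CPM in the LT-HSC libraries, against 3.54 and 4.26 CPM in the ST-HSC libraries. Only 11 UMIs stand behind the LT-HSC values, all in mouse 2, and 4 of them came from 1 cell. The ST-HSC libraries held 98 and 56 UMIs. The difference was -2.19 (SE 0.53; edgeR adjusted p = 0.00129), and -2.74 (SE 0.44; edgeR adjusted p = 0.0017) with all barcodes of LT1, which held 3 Itgal UMIs in all. Without LT2 it did not pass (edgeR adjusted p = 0.835). The transcript was rare in every library: after thinning, 0.164% of cells in LT2 had a UMI, against 0.798% and 0.82% in the ST-HSC libraries. The intervals of these shares overlapped.

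Itgb2 (ENSMUSG00000000290, chromosome 10, 77530252 to 77565708, plus strand), the beta chain that completes LFA-1, lay at 0 and 6.87 CPM in LT-HSC, against 12.2 and 11.8 CPM in ST-HSC. Both LT-HSC values were the lower ones, but the 0 UMIs in LT1 have a Poisson upper bound of 30.2 CPM, above both ST-HSC levels. The kept cells of LT1 thus cannot show whether Itgb2 was lower in mouse 1. The difference of -0.84 (SE 0.29) did not pass the threshold (edgeR adjusted p = 0.0595). With the mouse as a replicate block it was -0.81 and passed (edgeR adjusted p = 0.0237). With all barcodes of LT1 the levels were 8.41 and 6.5 CPM in LT-HSC, against 11.5 and 11.1 CPM in ST-HSC, and the difference was -0.61 (edgeR adjusted p = 0.0834 without the block and 0.0458 with it). It also passed without ST2 (-0.85; edgeR adjusted p = 0.0162). The call therefore turned on the fit and on 1 library.

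In the kept cells, markers of myeloid and erythroid cells were lower in sum in LT-HSC, like both LFA-1 chains. The summed level of 12 neutrophil markers was 520 and 526 CPM in the LT-HSC libraries, against 1011 and 2380 CPM in the ST-HSC libraries. Of the 12 markers, 4 and 11 were detected in the LT-HSC libraries and 12 in each ST-HSC library, with Ltf at 0 in both LT-HSC libraries. The 115305 UMIs of LT1 limit what could be detected there. Cells with 0.5% or more of their UMIs from the marker list of another type numbered 0 and 5 in LT-HSC, against 25 and 36 in ST-HSC. Most were past that share for erythroid markers, 4 cells in LT2, against 16 in ST1 and 20 in ST2, and fewer for neutrophil markers, 1 cell in LT2, against 6 in ST1 and 10 in ST2. Of 8 tested erythroid markers 6 were lower in LT-HSC by edgeR, with a list median of -2.99, and 2 were lower with all barcodes of LT1, with a list median of 0.25. The 10 erythroid markers summed to 867 and 971 CPM in LT-HSC, against 1044 and 1150 CPM in ST-HSC. With all its barcodes LT1 reached 2432 CPM, above the kept cells of both ST-HSC libraries, while ST2 reached 3082 CPM with all its barcodes. Both LFA-1 chains were lower in LT1 with all barcodes. Whether the marker levels bear on the LFA-1 chains was not tested. The cells past 0.5% for any of these lists held 4.49% of the Itgb2 UMIs in LT2, against 8.61% in ST1 and 25.2% in ST2. They held 9.09% of the Itgal UMIs in LT2, against 13.3% and 16.1% in the ST-HSC libraries. For Itgb5 the shares were 0% in LT2, against 0.678% and 1.72% in the ST-HSC libraries. Without these cells the difference of Itgb2 was -0.67 (edgeR adjusted p = 0.199), that of Itgal was -2.12 (adjusted p = 0.00192) and that of Itgb5 was -3.75 (adjusted p = 1.61e-28).

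Itgal and Itgb2 encode the chains of 1 receptor, so the cells that held both were counted. After thinning to 2000 UMIs, an Itgb2 UMI was seen in 0 of 2 cells with an Itgal UMI in LT2, in 0 of 21 in ST1 and in 2 of 14 in ST2. At 4000 UMIs per cell, 1 of 3 such cells in LT2 had an Itgb2 UMI, beside 2.66% of cells without Itgal. In ST1 it was 5 of 28 cells (17.9%, interval 6.06% to 36.9%) beside 4.12% of cells without Itgal (interval 3.38% to 4.96%), and in ST2 it was 2 of 17 (11.8%, 1.46% to 36.4%) beside 3.85%. The counts are too few for more than a range.

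The other beta chain, Itgb1 (ENSMUSG00000025809, chromosome 8, 128685654 to 128733200, plus strand), and its partners did not pass the test. Itgb1 lay at 139 and 123 CPM in LT-HSC, against 106 and 102 CPM in ST-HSC, and Itga6 (ENSMUSG00000027111, chromosome 2, 71745616 to 71858416, plus strand) at 82.0 and 63.5 CPM in LT-HSC, against 49.4 and 48.4 CPM in ST-HSC. In both genes each LT-HSC library lay above each ST-HSC library, the reverse of the beta 2 and beta 5 chains. The differences were 0.27 for Itgb1 (95% interval -0.09 to 0.64; edgeR adjusted p = 0.688) and 0.41 for Itga6 (0.03 to 0.80; edgeR adjusted p = 0.3), where each interval is for 1 gene and is not adjusted. For Itga6 the separation ended with all barcodes of LT1. Its levels were then 44.0 and 60.1 CPM in LT-HSC, against 46.7 and 45.7 CPM in ST-HSC, and the difference was 0.17. Itgb1 stayed separate, at 119 and 116 CPM in LT-HSC, against 100 and 96.0 CPM in ST-HSC. The Itgb1 difference was then 0.26 (edgeR adjusted p = 0.395).

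Itga4 (ENSMUSG00000027009, chromosome 2, 79255426 to 79333123, plus strand), the alpha chain of VLA-4, lay at 82.0 and 92.9 CPM in LT-HSC, against 109 and 96.4 CPM in ST-HSC. Both LT-HSC libraries were lower, LT2 by less than the gap between ST1 and ST2, and the difference of -0.17 (95% interval -0.54 to 0.20; edgeR adjusted p = 0.941) did not pass. Itgb1 was seen in nearly equal shares of the cells with and without an alpha partner. In LT2, 20.1% of cells with an Itga4 UMI and 19.0% of cells without one held an Itgb1 UMI. In ST1 the shares were 18.3% and 19.3%, and in ST2 they were 16.8% and 17.8%. With Itga6 in place of Itga4 they were 19.7% and 19.2% in LT2, 18.6% and 19.1% in ST1, and 16.3% and 17.8% in ST2. Every pair of intervals overlapped. Without thinning, 58.3% of LT2 cells held an Itga4 UMI, against 18.4% after it. Many cells counted as without Itga4 thus held its RNA, so these shares cannot show whether the chains occur in the same cells.

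Cd44 (ENSMUSG00000005087, chromosome 2, 102811141 to 102901665, minus strand), the hyaluronan receptor, was the third gene to pass. Its levels were 57.4 and 58.2 CPM in LT-HSC, against 95.1 and 94.4 CPM in ST-HSC. The libraries of each gate lay within 1 CPM of each other, and the gates did not overlap. The LT1 level rests on 7 UMIs, with a 95% Poisson interval of 23.1 to 118 CPM that covers both ST-HSC levels. The difference was -0.70 (SE 0.19; edgeR adjusted p = 0.00655), a level 1.63-fold higher in ST-HSC. With all barcodes of LT1 it was -0.86 (SE 0.16; edgeR adjusted p = 0.00471), from 43.2 and 55.1 CPM in LT-HSC, against 89.8 and 89.1 CPM in ST-HSC. After thinning, 11.4% of cells had a Cd44 UMI in LT2, against 16.9% in ST1 and 17.9% in ST2, and the interval of the LT-HSC share, 9.69% to 13.3%, lay below both of the others. Without thinning the shares were 44.1%, 58.4% and 49.2% in that order. The Cd44 call was lost when any 1 of LT2 (edgeR adjusted p = 0.745), ST1 (0.172) or ST2 (0.153) was left out, while the difference stayed between -0.73 and -0.70.

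Selplg (ENSMUSG00000048163, chromosome 5, 113818536 to 113832644, minus strand), the selectin ligand, lay at 49.2 and 78.9 CPM in LT-HSC, against 90.4 and 113 CPM in ST-HSC. Both LT-HSC libraries were lower, yet the libraries of a gate also lay apart from each other. The difference of -0.42 (SE 0.19) did not pass (edgeR adjusted p = 0.246), nor did it with all barcodes of LT1 (-0.53; edgeR adjusted p = 0.0988), though it did with those barcodes and without LT2 (-0.72; edgeR adjusted p = 0.0462). After thinning, 14.4% of cells had a Selplg UMI in LT2, against 16.7% in ST1 and 20.4% in ST2.

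Cxcr4 (ENSMUSG00000045382, chromosome 1, 128588199 to 128592293, minus strand), the CXCL12 receptor, was the 1 gene whose gates overlapped in the kept cells, through 6 UMIs in LT1. It lay at 49.2 and 39.0 CPM in LT-HSC, against 46.5 and 44.9 CPM in ST-HSC. The difference was -0.20 (95% interval -0.62 to 0.21; edgeR adjusted p = 0.922). With all barcodes of LT1 the overlap ended, at 36.4 and 36.9 CPM in LT-HSC, against 43.9 and 42.4 CPM in ST-HSC. That difference was -0.24 (edgeR adjusted p = 0.397). After thinning, 6.57% of cells had a Cxcr4 UMI in LT2, against 8.39% in ST1 and 7.73% in ST2. Within mouse 2, where both gates gave over 1000 cells, the thinned share was higher in LT-HSC for 3 of the 9 genes, Itga4, Itga6 and Itgb1. The intervals overlapped for each of them, and the level of Itga4 in mouse 2 was lower in LT-HSC, 92.9 against 96.4 CPM.

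**Figure D2:**
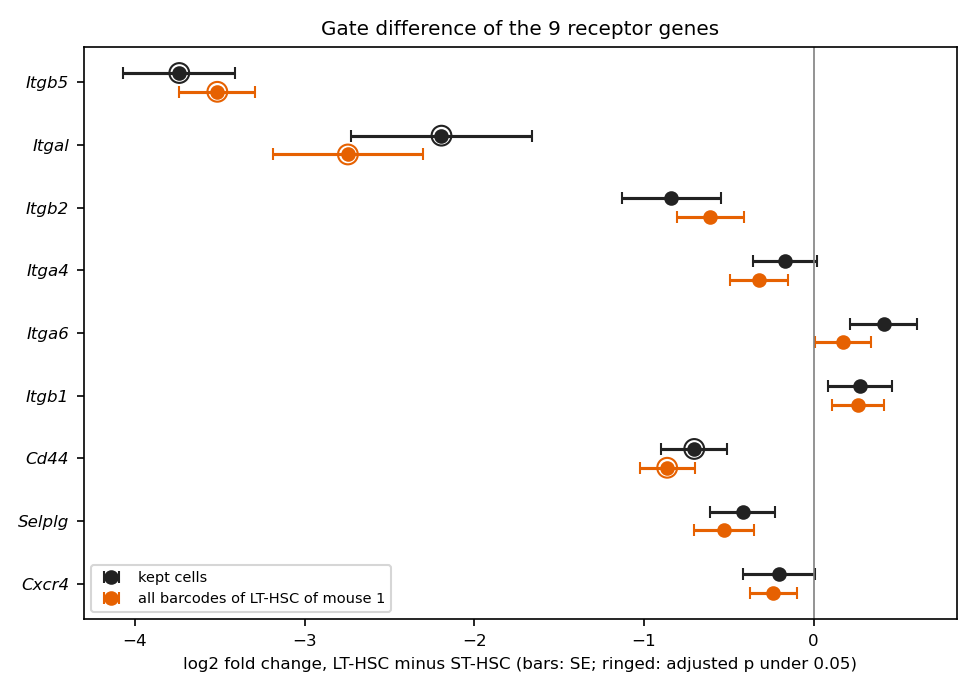
Log2 fold change of each receptor gene, LT-HSC minus ST-HSC (x axis), with standard errors as bars, from kept cells (black) and with all barcodes of LT1 (orange); rings mark an edgeR adjusted p under 0.05. Itgb5 at -3.74, Itgal at -2.19 and Cd44 at -0.70 are ringed in both fits, and Itgb1 and Itga6 are the 2 genes to the right of 0.

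Within libraries, Cxcr4 was higher in cells with RNA of the dividing phases of the cell cycle. Cells were parted by UMIs of 16 G2 and M phase genes after thinning to 2000 UMIs, into those with 3 or more and those with none. Cxcr4 lay at 62.8 CPM in 49 cells with G2 and M phase RNA of LT2, against 35.9 CPM in 1064 cells without it. In ST1 the levels were 87.1 CPM in 83 cells with such RNA, against 44.3 CPM in 2235 without it. In ST2 they were 96.9 CPM in 48 cells with it, against 40.1 CPM in 1522 without it. The 95% counting intervals of both classes lay apart in all 3 libraries, and the ratios were 1.75, 1.97 and 2.42. Cells are not replicates, so these are descriptions of 3 libraries from 2 mice, with no test.

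Cells with G2 and M phase RNA also held more UMIs, with medians of 20609, 16763 and 10422.5 UMIs in the same order, against 10149.5, 9681 and 7412.5 in cells without it. Among cells without such RNA that held at least the median UMIs of those with it, Cxcr4 lay at 26.1 CPM in 10 cells of LT2, 42.0 CPM in 84 cells of ST1 and 44.3 CPM in 133 cells of ST2. Each lay below the class with G2 and M phase RNA, with intervals apart in both ST-HSC libraries and overlapping in LT2. The neutrophil markers summed to 155 CPM in cells with G2 and M phase RNA and 574 CPM in cells without it in LT2, to 4853 and 741 CPM in ST1, and to 869 and 2673 CPM in ST2. Without cells that carried markers of other types, Cxcr4 was at 62.8, 77.0 and 85.2 CPM in cells with G2 and M phase RNA, against 35.9, 44.1 and 38.8 CPM in cells without it.

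Itga6 ran the other way in 2 of the 3 libraries. It lay at 39.5 CPM in cells with G2 and M phase RNA and 64.6 CPM in cells without it in LT2, and at 33.9 and 50.7 CPM in ST1, with intervals apart in both. In ST2 the levels were 46.7 and 47.1 CPM. Itgb5 lay at 12.0 CPM in cells with such RNA and 28.4 CPM in cells without it in ST1, where the intervals were apart, and at 8.65 and 22.6 CPM in ST2, where they overlapped. Against the size-matched cells, at 19.5 and 11.2 CPM, the Itgb5 intervals overlapped in both ST-HSC libraries, and those of Itga6 overlapped in all 3 libraries. Itgb2 and Itgal were higher in cells with G2 and M phase RNA in all 3 libraries, with overlapping intervals, but this turned for each gene in 1 ST-HSC library without cells that carried markers of other types. Without them, Itgb2 lay at 7.21 CPM in cells with G2 and M phase RNA and 11.2 CPM in cells without it in ST1, and Itgal at 1.98 and 3.75 CPM in ST2. At 5 or more G2 and M phase UMIs in all kept cells, Itgal lay at 0 and 0.545 CPM in LT2. In ST2 it lay at 3.21 and 4.11 CPM, so the direction turned in both, with overlapping intervals.

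**Figure D3:**
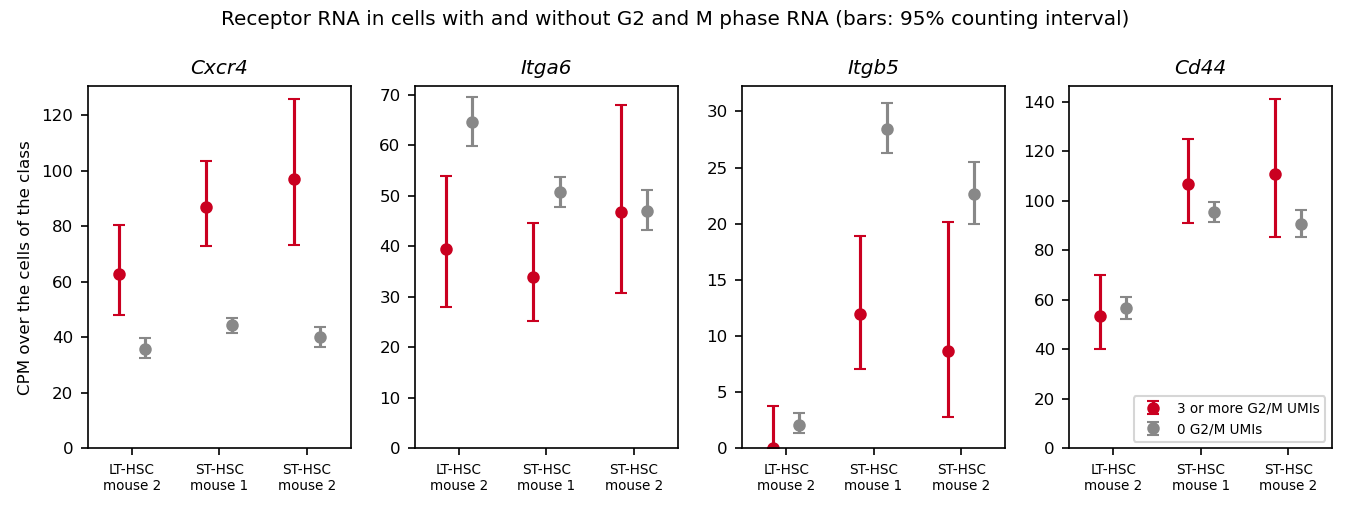
Level of Cxcr4, Itga6, Itgb5 and Cd44 (CPM over the summed cells of a class, y axis from 0) in cells with 3 or more UMIs of G2 and M phase genes (red) and cells with none (grey), in the 3 libraries with over 1000 kept cells; bars are 95% Poisson intervals and cover counting error only. Cxcr4 was higher in the red class in all 3 libraries, at 62.8, 87.1 and 96.9 CPM against 35.9, 44.3 and 40.1 CPM, while the Cd44 intervals overlapped in each.

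Within ST-HSC, the cells were also parted by Flt3, the cytokine receptor gene that comes on as multipotent progenitors leave the stem cell state. Itgb5 was higher in the cells with a Flt3 UMI in both mice. It lay at 32.7 CPM in 619 cells with Flt3 of ST1, against 24.7 CPM in 2014 cells without it, and at 29.0 CPM in 471 cells with Flt3 of ST2, against 18.7 CPM in 1236 cells without it. The counting intervals lay apart in both mice, and also after thinning to 4000 UMIs. Cd44 followed with a smaller gap, at 105 CPM with Flt3 and 91.4 CPM without it in mouse 1, where the intervals lay apart, and at 99.2 and 88.6 CPM in mouse 2, where they overlapped. After thinning to 4000 UMIs the Cd44 intervals lay apart in both mice. Selplg was higher in cells with Flt3 in both ST-HSC libraries too, with overlapping intervals. Cxcr4 was so at 2000 UMIs, again with overlapping intervals, but at 4000 UMIs it lay at 43.0 CPM in cells with Flt3 and 43.4 CPM in cells without it in ST2.

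In the ST-HSC cells without a Flt3 UMI, Itgb5 was above the 1.81 CPM that LT2 held over all its cells, and Cd44 was above the 57.0 CPM it had in LT2. Cells with a Flt3 UMI rose from 619 at 2000 UMIs to 994 at 4000 UMIs in ST1, and from 471 to 724 in ST2. The cells without a Flt3 UMI thus include cells that held Flt3 RNA and are not a class free of it. LT2 had 28 cells with a Flt3 UMI at 2000 UMIs, and none of them held an Itgb5 UMI, with a 95% Poisson upper bound of 12.9 CPM. At 4000 UMIs it had 71 such cells, with Itgb5 at 1.32 CPM and an upper bound of 7.33 CPM. The neutrophil markers summed to 454 and 481 CPM in cells with Flt3, against 1171 and 3071 CPM in cells without it, in ST1 and ST2. Without cells that carried markers of other types, Itgb5 was at 32.4 and 29.0 CPM in cells with Flt3, against 25.1 and 18.8 CPM in cells without it. No gene reached a correlation of 0.2 with Itgb5, Itgal or Cd44 over cells in each of the 3 large libraries.

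The other adhesion and homing genes were taken from 8 lists of textbook members, which hold 188 genes. Of 131 tested, 28 passed, 13 as higher and 15 as lower in LT-HSC, which is 21.4% beside 6.72% of all genes tested. Their median log2 fold change was -0.08, beside -0.02 over all genes tested. The lists were drawn up with earlier results of these data known, so the share describes them and nothing more. With DESeq2 1 of the 28 passed, Cd34, and 27 did not, at adjusted p from 0.953 to 1, where 0.419% of all genes passed. With DESeq2 and all barcodes of LT1, 23 of the 28 passed. The calls of single genes below are those of edgeR. Not confined to the 28, the next counts are over all genes of the 8 lists tested in each fit. Without LT2, which leaves 22 LT-HSC cells, 0 of them passed in edgeR, while 29 passed with all barcodes of LT1 and without LT2. With 1 of the other libraries left out, 19 to 25 passed, and the p of each named gene whose call was lost that way is given beside it.

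Among the other integrin chains, 7 alpha and 3 beta chains were tested. Itga2b, the alpha chain of the platelet fibrinogen receptor, was higher in LT-HSC by 1.09 (SE 0.22; edgeR adjusted p = 5.05e-05), at 49.2 and 27.8 CPM in LT-HSC, against 13.6 and 13.4 CPM in ST-HSC (edgeR adjusted p = 0.0809 without ST1). Its beta chain Itgb3, named after its values were seen, was higher too, by 1.35 (edgeR adjusted p = 0.0119). Itgb7, which pairs with alpha 4 in a gut homing receptor, was lower in LT-HSC, with a difference of -1.08 (edgeR adjusted p = 0.000733), at 16.4 and 9.49 CPM in LT-HSC, against 19.1 and 21.8 CPM in ST-HSC. Itgam, the alpha chain of the Mac-1 receptor and another partner of beta 2, was lower, with a difference of -1.99 (edgeR adjusted p = 2.39e-05), at 8.2 and 2.08 CPM in LT-HSC, against 7.7 and 9.82 CPM in ST-HSC. The libraries of the gates overlapped for Itgam, since 1 UMI gave the value in LT1.

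Inside the cell, integrins are switched on and linked to actin by talin, kindlins and their partners. Of 21 tested genes of integrin activation, 1 passed, where 6.72% of all genes tested did. That gene, Zyx, which encodes zyxin of focal adhesions, was lower in LT-HSC, with a difference of -0.67 (edgeR adjusted p = 0.0114). Its levels were 82.0 and 75.9 CPM in LT-HSC, against 130 and 114 CPM in ST-HSC. The call was lost without ST1 (edgeR adjusted p = 0.43) and without ST2 (0.141). The median of the list was -0.11.

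Of 19 tested genes of selectins and selectin ligand synthesis, 2 were higher and 2 lower in LT-HSC, beside 3.6% and 3.13% of all genes tested. Fut7, the fucosyltransferase that makes PSGL-1 able to bind selectins, was lower, with a difference of -1.40 (SE 0.24; edgeR adjusted p = 7.58e-07), at 24.6 and 11.3 CPM in LT-HSC, against 27.7 and 34.1 CPM in ST-HSC. Selp, which encodes P-selectin, was higher by 1.44 (edgeR adjusted p = 0.000894), at 24.6 and 8.72 CPM in LT-HSC, against 3.72 and 3.04 CPM in ST-HSC. Podxl, named after its values were seen, was higher by 2.24 (edgeR adjusted p = 0.000489) from 37 UMIs in LT-HSC. Selplg itself, the ligand these genes meet on, did not pass.

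Of 13 other tested chemokine and homing receptors, 1 was higher and 3 were lower in LT-HSC, beside 3.6% and 3.13% of all genes tested. P2ry14, a receptor for UDP-glucose, was lower, with a difference of -0.77 (edgeR adjusted p = 0.00667), at 24.6 and 34.5 CPM in LT-HSC, against 60.1 and 55.2 CPM in ST-HSC, and did not pass without ST1 (edgeR adjusted p = 0.272) or without ST2 (0.0986). Ptger4, a prostaglandin E2 receptor, was higher by 0.69 (edgeR adjusted p = 0.0419, and 0.147 with the replicate block, 0.343 without ST1 and 0.0724 without ST2). Ccr2 and Ccr9 were named after their values were seen. Ccr9, which guides progenitors to the thymus and lymphocytes to the gut, had 0 and 1 UMIs in LT-HSC, against 45 and 23 UMIs in ST-HSC. Ccr2, a receptor of inflammatory monocytes, was lower, with a difference of -1.59 (edgeR adjusted p = 0.0209), and the difference was -0.13 (edgeR adjusted p = 0.99) without the cells that carried markers of other types; its edgeR adjusted p was 0.268 without LT1 and 0.715 without ST2.

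Among 29 tested genes of CXCR4 signalling, none was higher in LT-HSC, 4 were lower and 26 of 29 values were negative. Over all genes tested, 3.6% passed as higher and 3.13% as lower, and 53.2% of values were negative. With all barcodes of LT1, 22 of 29 were negative. At an unadjusted p under 0.05, none was higher and 6 were lower by edgeR, beside 6.98% and 6.6% of all genes tested. By DESeq2 none was higher and none lower at that level. Rgs2, a brake on G protein signals, was lower, with a difference of -1.22 (edgeR adjusted p = 1.33e-05), at 32.8 and 19.1 CPM in LT-HSC, against 53.7 and 37.6 CPM in ST-HSC (edgeR adjusted p = 0.298 without ST1). Rgs3 was lower, with a difference of -0.86 (edgeR adjusted p = 0.0298), and the difference was -0.53 (edgeR adjusted p = 0.165) with all barcodes of LT1. Coro1a, an actin-binding coronin, was lower, with a difference of -0.61 (edgeR adjusted p = 0.0363), and the difference was -0.32 (edgeR adjusted p = 0.389) with all those barcodes. Its edgeR adjusted p lay between 0.0775 and 0.515 without LT1, ST1 or ST2. Rgs10, named after its values were seen, was lower, with a difference of -1.20 (edgeR adjusted p = 0.0267, and 0.0967 with the replicate block, 0.0553 without LT1 and 0.16 without ST1). The median of the list was -0.17, against -0.02 over all genes tested.

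Of 33 other tested adhesion receptors of stem cells, 8 were higher and 3 lower in LT-HSC, beside 3.6% and 3.13% of all genes tested. Jam3 and Jam2, whose products bind each other at cell junctions, were higher by 1.73 (edgeR adjusted p = 2.91e-10) and 1.86 (edgeR adjusted p = 3.02e-07). Jam2 lay at 8.2 and 13.4 CPM in LT-HSC, against 3.07 and 4.34 CPM in ST-HSC, while the gates overlapped for Jam3 through the 1 UMI in LT1. Cd34, a sialomucin used to part stem and progenitor cells, was lower, with a difference of -1.75 (SE 0.21; edgeR adjusted p = 1.83e-13), at 90.1 and 124 CPM in LT-HSC, against 404 and 389 CPM in ST-HSC. Sdc1, a heparan sulfate proteoglycan, was lower, with a difference of -2.58 (edgeR adjusted p = 7.22e-13). Of 8 tested niche ligands, such as stromal cytokines and matrix proteins, 0 passed in edgeR or DESeq2, and 3 had an unadjusted p under 0.05 in edgeR, beside 13.6% of all genes. Over 15 alternatives 0 to 3 passed, with 1 or more in 8 of them, among these the replicate block. With all barcodes of LT1, 1 passed: Spp1, which encodes osteopontin and is named after its values were seen, was lower, with a difference of -1.35 (edgeR adjusted p = 0.0166).

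**Figure D4:**
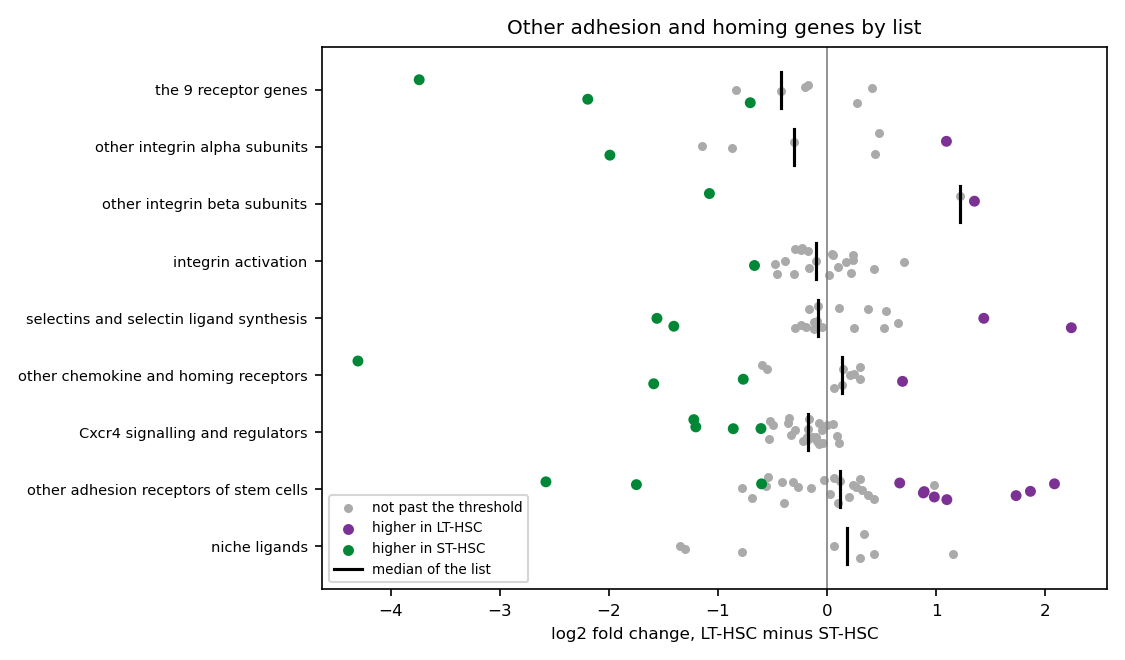
Log2 fold change of each tested gene, LT-HSC minus ST-HSC (x axis), for the 9 receptor genes and 8 lists of other adhesion and homing genes (rows); purple points passed the test as higher and green points as lower in LT-HSC, grey points did not, and black lines are list medians. The medians of the lists with 5 or more tested genes lie between -0.42 and 0.18, with Itgb5 at -3.74, and the point farthest to the left is Ccr9, which rests on 1 UMI in LT-HSC.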

How the data were processed

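Cells of the 4 libraries were captured with the 10x Chromium 3′ v3 kit, per the labels' protocols. The authors deposited raw counts of UMIs, made with Cell Ranger 3.1.0 on mm10, per the submitters' processing notes; the matrix headers name software version 3.0.2. How the deposited barcodes were selected was not stated. Tags near the 3′ end do not compare levels between genes.

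Counts of kept cells were summed per library and fitted in edgeR 4.0.16 (glmQLFTest, TMM, filterByExpr, gate only) under R 4.3.3, with DESeq2 1.42.0 as an alternative. Each SE is |log2 fold change| over the root of F, and gene intervals span 1.96 SE to each side. CPM in gate comparisons use TMM-scaled totals; cell classes and floors use plain totals. Poisson and exact binomial intervals are at 95% and cover counting error only. Cells were thinned to 2000 UMIs without replacement. Doublets were not called; an alternative left out cells above 2 times the median UMIs of their library. The fits were tested on simulated data.

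The mouse numbers pair the libraries because each animal gave both gates (correlation of deviations 0.15 over 6262 genes averaging at least 20 CPM), and the replicate block is an alternative. The 9 genes and the lists were chosen with earlier results of these data known. Named genes are the 9 receptors and, per list, up to 4 genes with the lowest p among those averaging at least 5 CPM, given where they passed, except 1 that is not reported here; others are said to be named after their values were seen.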

Additional observations from a re-analysis of the deposited data

Results flagged for a closer look

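In 3 genes the gate difference ran opposite ways in the 2 mice, and these differences between mice were not tested. The value of mouse 1 rests on few UMIs in LT-HSC in each case. Cxcr4 was higher in LT-HSC by 2.65 CPM in mouse 1, from 6 UMIs in LT-HSC, and differed by -5.86 CPM in mouse 2. With all barcodes of LT1 it was lower in LT-HSC in both mice. The levels were then 36.4 against 43.9 CPM in mouse 1 and 36.9 against 42.4 CPM in mouse 2. Itgam was higher in LT-HSC by 0.496 CPM in mouse 1, from 1 UMI, and differed by -7.73 CPM in mouse 2. Ptger4 differed by -4.89 CPM in mouse 1, from 1 UMI, and was higher in LT-HSC by 8.59 CPM in mouse 2.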

How the results depend on the processing

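The count of genes past the threshold was 851 as reported, 53 with DESeq2 (256 at an unadjusted p under 0.05), 1477 with all barcodes of LT1 and the replicate block, and 1 to 967 when each library was left out in turn, the 1 without LT2. Of the receptor genes 3 passed as reported, 1 (Itgb5) with DESeq2 and 0 to 3 with a library left out; without LT2, which leaves 22 LT-HSC cells, edgeR called 0 (1 at an unadjusted p under 0.05). Of the other adhesion genes 28 passed as reported, 1 with DESeq2 and 0 to 25 with a library left out. Leaving out a library leaves 1 in its gate, which is assumed to vary like the other gate. Itgb5 passed under every alternative run except without LT2, with DESeq2 at an adjusted p of 0.0388. Co-detection of partner chains was above that in cells without a UMI of the alpha chain in 3 of 9 cases at 2000 UMIs and in 5 at 4000. Without LT2 the sign turned for Cxcr4 (0.10, in a range of -0.23 to 0.10 with a library left out) and Ptger4 (-0.69, in a range of -0.69 to 0.73), and with all barcodes of LT1 and without LT2 it turned for Itga6 (-0.073); the cause was not tested. The replicate block ended the calls of Ptger4 and Rgs10, added Itgb2, and changed no other call of a named gene. Over single genes and alternatives, 378 results kept their direction and call, 90 lost the call, 9 gained it and 3 reversed. Genes below 26.0 CPM could be missed in LT1.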
